A study of Homo sapiens with 17 samples.

Results

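Stress-induced secreted factors are hormones and growth factors that a cell releases when it lacks amino acids or oxygen or when its endoplasmic reticulum is loaded. The 9 genes described here are GDF15, INHBE, ERFE, FGF21, VEGFA, STC1, STC2, ADM and ADM2, of 60662 genes counted. They were chosen for their changes under progesterone (P4), so their P4 values describe the choice and carry no test. Ishikawa cells, a line from a human endometrial adenocarcinoma used as a model of endometrial epithelium, were kept in charcoal-stripped serum and sequenced as total RNA after 24 h. Of 17 cultures, 11 had a group. The control group (n = 3) received basal medium, and the vehicle control group (n = 3) received the components the labels call Nap and EtOH, the ethanol being given as 70%. A figure caption of the study gives a lower percentage of ethanol for its vehicle control. The Nap only group (n = 2) received Nap alone, and the P4 treated group (n = 3) received Nap and progesterone. The study states that RNA was sequenced at the highest of its P4 concentrations. Nap is not defined in the sources used here, and the labels name no ethanol for the P4 treated cultures. The dose of P4 is given in different units in the labels and in the study's text. By label, the vehicle control thus differs from the P4 treated cultures in ethanol as well as in P4, and the 2 cannot be told apart in that contrast. The remaining 6 cultures concern recombinant human PSAT1 and have contradictory labels, so they entered no comparison.

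Several of these factors share control by ATF4 and CHOP, the transcription factors of the integrated stress response. This response lowers general protein synthesis when eIF2α is phosphorylated and raises a set of genes for amino acid supply and stress adaptation. GDF15 acts on GFRAL in the hindbrain and lowers appetite, FGF21 acts through KLB and FGF receptors on metabolism, and INHBE encodes the βE subunit of activin. ERFE, or erythroferrone, binds BMP6 and so lowers hepcidin. VEGFA drives growth of vessels, also in the endometrium, and is a classical target of hypoxia-inducible factors. STC1 and STC2 are stanniocalcins, and STC2 inhibits the protease PAPPA. ADM and ADM2 are vasoactive peptides that signal through CALCRL with a RAMP partner.

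Library totals ranged from 4999521 counts (vehicle control replicate 1) to 19704493 counts. Epithelial markers were present, with EPCAM between 172 and 215 CPM (read counts scaled to library size), and the summed level of 5 epithelial markers was 929 to 1080 CPM in P4 treated cultures against 1150 to 1370 CPM in controls. Of the endometrial epithelial factors, PAX8 lay between 205 and 362 CPM, while FOXA2 did not exceed 0.193 CPM. The summed level of these 4 factors was 395 to 413 CPM in vehicle controls, above the 265 to 293 CPM of the other cultures. The summed level of 4 endothelial markers did not exceed 1.54 CPM and that of 4 immune markers 1.55 CPM, and CDH5 was at 0 in all labelled cultures. Of 5 stromal markers, COL1A1 and COL3A1 were above 1 CPM in every culture, and the summed stromal level was 66.1 to 75.9 CPM in P4 treated cultures, 68.6 to 90.9 CPM in vehicle controls and 91.1 to 156 CPM in controls. The part of these marker differences in the values of the secreted factors was not tested. In bulk RNA, fewer cells expressing a gene and less RNA per cell cannot be told apart.

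A promoter sequence of 300 bases (250 before to 50 after the start, RefSeq, GRCh38.p14) was matched for 6 of the 9 genes, namely GDF15, ERFE, FGF21, STC2, ADM and ADM2. Both strands were searched for the ATF composite element TGATGNAAN, to which ATF4 binds with C/EBP partners, for the cyclic AMP element TGACGTCA, for the hypoxia core ACGTG, for the endoplasmic reticulum stress element and for a steroid receptor palindrome. One match was found, an ATF composite element on the reverse strand of the FGF21 promoter, whose first base lies at -55 from the start. It is shown as the single match among these promoters, with the element in capitals (chr19:48755459-48755488, + strand):
FGF21: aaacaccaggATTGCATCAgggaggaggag
Among 35116 promoters of the same length, 3.61% held this element, 1.85% the cyclic AMP element and 21.4% the hypoxia core. The endoplasmic reticulum stress element was held by 0.0769% and the steroid receptor palindrome by 0.39%. A match of letters is a description and not a site of binding.

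GDF15 (chr19:18374731-18389176, + strand, GRCh38) showed a wide gap between P4 treated and other cultures. It was at 115, 148 and 145 CPM in the P4 treated cultures. The vehicle controls had 3.45, 3.90 and 3.78 CPM, the controls 2.85, 3.27 and 3.12 CPM, and the Nap only cultures 3.23 and 2.82 CPM. Every P4 treated culture lay far above all 8 others, which had at most 3.90 CPM. The mean was 136 ± 18.3 CPM (SD, n = 3) against 3.71 ± 0.234 CPM (SD, n = 3) in vehicle controls, a log2 fold change of 5.16 (SE 0.134) or 35.6-fold. A microRNA gene, MIR3189, lies inside GDF15 on the same strand, and its reads are not distinguished here.

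FGF21 (chr19:48755559-48758333, + strand) was nearly absent without P4. Its raw counts were 24, 16 and 31 in P4 treated cultures. The vehicle controls had 0, 1 and 0 counts, the controls 4, 0 and 3, and the Nap only cultures 1 and 1. All 3 P4 treated cultures lay above the other 8, yet at a mean of only 2.01 ± 0.555 CPM (SD, n = 3). Over the group sums of 71 counts and 1 count, scaled to library size, the ratio to vehicle control was 63.0 (95% interval 11 to 2520, counting error only). It rests on a single count, and the fitted log2 fold change of 5.54 was 7.42 without vehicle control replicate 2, where the remaining vehicle controls are at 0 and the value depends on the prior count, and 4.96 without vehicle control replicate 3. Against control the count ratio was 14.8 (6.82 to 38.1) and against Nap only 27.9 (7.43 to 234). FGF21 passed the filter through the P4 treated cultures, and these ratios are a description and not a test.

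Among the activin-type and iron-regulating factors, INHBE and ERFE stood several-fold higher with P4. INHBE (chr12:57452323-57459280, + strand) was at 114, 99.4 and 111 CPM in P4 treated cultures. It was at 19.2, 18.9 and 17.7 CPM in vehicle controls, at 28.9, 23.6 and 23.8 CPM in controls and at 26.1 and 24.4 CPM in Nap only cultures. The P4 treated cultures were highest, and the vehicle controls were below every control and Nap only culture. The fitted ratio was 5.78-fold to vehicle control (log2 2.53, SE 0.0866) and 4.17-fold to control (log2 2.06, SE 0.107), since these comparisons start from different base levels.

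ERFE (chr2:238158982-238168900, + strand) was at 326, 326 and 340 CPM in P4 treated cultures. The vehicle controls had 51.5, 60.6 and 59.4 CPM, the controls 54.9, 45.5 and 47.5 CPM, and the Nap only cultures 48.5 and 41.1 CPM. The P4 treated cultures were close to one another and lay above all others, while the remaining groups overlapped in part. ERFE was 5.68-fold higher with P4 than with vehicle (log2 2.51, SE 0.0744) and 7.26-fold higher than with Nap only (log2 2.86, SE 0.100).

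VEGFA (chr6:43770184-43786487, + strand) was 4.44-fold higher with P4 than with vehicle. The P4 treated cultures had 353, 457 and 425 CPM. The vehicle controls had 85.3, 95.9 and 93.4 CPM, the controls 104, 117 and 106 CPM, and the Nap only cultures 93.3 and 115 CPM. The P4 treated values did not overlap those of any other group. The log2 fold change was 2.15 (SE 0.0928) against vehicle and 1.89 (SE 0.106) against control. VEGFA overlaps the antisense gene AL136131.3, and since the strand setting of the counting is not given in the sources used here, reads of the pair cannot be separated with certainty.

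STC2 was higher with P4, and STC1 was not. STC2 (chr5:173314713-173329503, - strand) was at 219, 165 and 187 CPM in P4 treated cultures against 56.1, 71.8 and 62.2 CPM in vehicle controls. It was at 71.9 to 77.6 CPM in controls and at 67.7 and 66.5 CPM in Nap only cultures. All P4 treated cultures were higher than all others, with a log2 fold change of 1.56 (SE 0.111) against vehicle. STC1, on chromosome 8, was low throughout. Its raw counts were 15, 9 and 10 in P4 treated cultures and 5, 15 and 14 in vehicle controls, or 1.44, 0.772 and 0.760 CPM against 0.958, 1.10 and 1.13 CPM. The controls had 1.93, 2.75 and 1.93 CPM and the Nap only cultures 1.57 and 2.08 CPM. P4 treated and vehicle control cultures overlapped, and both groups lay below every control and Nap only culture. The log2 fold change was -0.17 (SE 0.352) against vehicle, whose sign turned to 0.0049 without P4 treated replicate 3, and -1.21 (SE 0.315) against control. The count ratio to vehicle was 0.888 (95% interval 0.535 to 1.47, counting error only). The interval leaves out the spread between cultures, so it is a description and not a test.

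The adrenomedullins were both higher with P4 than in controls, but ADM was less separated from the vehicle. ADM2 (chr22:50481556-50486440, + strand) was at 45.3, 47.5 and 41.6 CPM in P4 treated cultures. It was at 13.6 to 16.1 CPM in vehicle controls, at 10.7 to 15.4 CPM in controls and at 11.5 and 11.1 CPM in Nap only cultures. No culture without P4 reached these values, and the log2 fold change against vehicle was 1.59 (SE 0.100). ADM (chr11:10304680-10307397, + strand) was at 4.33, 6.69 and 5.24 CPM in P4 treated cultures and at 2.87, 4.64 and 2.17 CPM in vehicle controls. The controls had 0.752, 2.54 and 1.71 CPM and the Nap only cultures 0.551 and 1.68 CPM. Vehicle control replicate 2 exceeded the lowest P4 treated culture, whereas no control or Nap only culture did. The log2 fold change was 0.70 (SE 0.271) against vehicle, 1.67 (SE 0.315) against control and 2.21 (SE 0.372) against Nap only. Without vehicle control replicate 2 the first of these was 1.16.

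**Figure D1:**
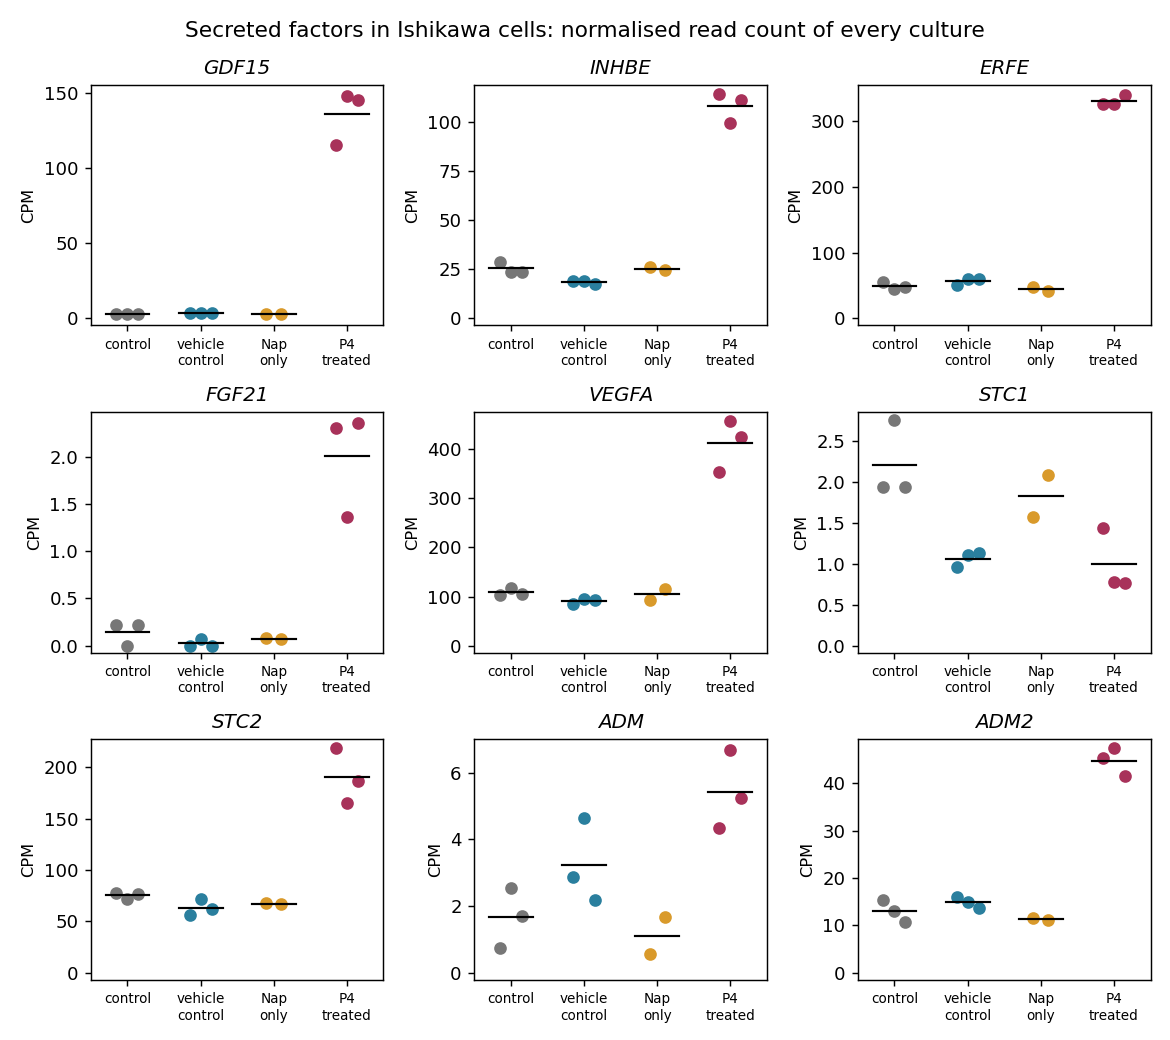
Normalised read count (CPM, linear axis, a separate scale for each gene) of the 9 secreted factors in the 11 labelled cultures; each point is 1 culture and each line the group mean. The P4 treated points lie above all others for 7 genes, overlap the vehicle controls for ADM, and lie among the lowest for STC1.

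Across the 9 genes, the summed level was 1230 ± 43.2 CPM (SD, n = 3) with P4, 254 ± 18.2 CPM (SD, n = 3) with vehicle, 279 ± 7.44 CPM (SD, n = 3) in controls and 258 ± 8.44 CPM (SD, n = 2) with Nap only. In 7 of 9 genes the P4 treated cultures lay above every vehicle control, and in the same 7 above all 8 other cultures. Of all 16540 genes tested, 30.7% and 22.7% did so. Since the genes were chosen by this contrast, nothing is read from their count. The median log2 fold change of the 9 genes against vehicle was 2.15, beside -0.013 over all genes tested. Over all genes, edgeR's quasi-likelihood test called 53% (Benjamini-Hochberg adjusted p under 0.05), 26.6% higher and 26.5% lower. Of the genes called, 50.1% were higher, and 40.7% were with upper-quartile normalization, which shifted the median of all genes to -0.10. The P4 treated cultures are shared by the 3 contrasts with P4, so these contrasts are not separate evidence.

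The levels per length changed order. Divided by the length of all exons, the controls ranked ERFE (13.8 ± 1.39 CPM per kb, SD, n = 3), STC2 (12.3 ± 0.488), INHBE (8.44 ± 0.996), VEGFA (7.56 ± 0.489), ADM2 (3.05 ± 0.548), GDF15 (1.47 ± 0.102), ADM (0.613 ± 0.330), STC1 (0.531 ± 0.114) and FGF21 (0.111 ± 0.0961). The ranges over cultures overlapped between INHBE and VEGFA and between ADM and STC1. In P4 treated cultures ERFE remained first with 92.5 ± 2.30 CPM per kb (SD, n = 3), and GDF15 moved from rank 6 to rank 2 with 65.1 ± 8.79. INHBE (35.8 ± 2.53), STC2 (31.1 ± 4.41) and VEGFA (28.5 ± 3.67) followed, with overlap of STC2 with both neighbours. ADM2 (10.5 ± 0.696), ADM (2.00 ± 0.438), FGF21 (1.53 ± 0.422) and STC1 (0.239 ± 0.0944) came last, with overlap of ADM and FGF21. VEGFA depends on the length used. Per kb of its longest coding transcript it ranked first in controls (30.8 CPM per kb) and second with P4 (117), with GDF15 next (113).

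**Figure D2:**
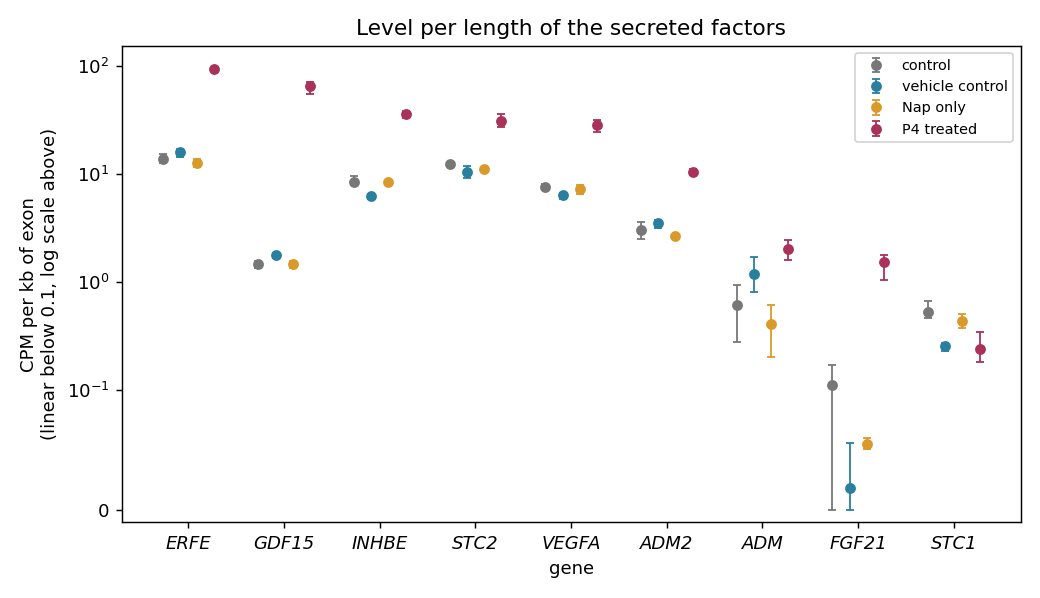
Level per length (mean CPM per kb of exon, log axis above 0.1) of the 9 secreted factors in the 4 groups, ordered by the P4 treated mean; bars run from the lowest to the highest culture. GDF15 moves from 1.47 in controls to 65.1 in P4 treated cultures, while STC1 lies at 0.239 with P4 and 0.531 in controls.

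The vehicle alone was compared with untreated cells, in which no P4 enters. The vehicle control cultures also took part in the contrast that chose the genes, so a low vehicle level favours a gene's choice and these tests are not free of it. INHBE, STC1, VEGFA and STC2 were lower in vehicle control than in control, and none of the 9 was called higher. FGF21 had too few counts to be tested. Of the 8 tested, 4 were called, all lower, beside 22.6% of 16673 genes called, 11.9% higher and 10.7% lower. INHBE fell by 0.46 on the log2 scale (SE 0.108, adjusted p = 0.0041 by edgeR's quasi-likelihood test), a call kept under all 13 alternatives (adjusted p from 0.00033 to 0.035). STC1 fell by 1.03 (SE 0.288, adjusted p = 0.013), VEGFA by 0.25 (SE 0.0753, adjusted p = 0.021) and STC2 by 0.23 (SE 0.0835, adjusted p = 0.048). The groups did not overlap for INHBE, STC1, VEGFA and STC2. For STC2 they nearly met, at 71.8 CPM in the highest vehicle control and 71.9 CPM in the lowest control. The share of all genes without overlap was not computed for this contrast, so nothing is read from it. Not called were ERFE with a log2 fold change of 0.23 (adjusted p = 0.065), ADM with 0.98 (0.099), GDF15 with 0.29 (0.32) and ADM2 with 0.16 (0.41). The calls other than INHBE rest on single cultures. Over all alternatives that gave one, the adjusted p ran from 0.0066 to 0.058 for STC1, from 0.0092 to 0.11 for VEGFA, from 0.015 to 0.22 for STC2, from 0.0017 to 0.42 for ADM and from 0.021 to 0.28 for ERFE. By edgeR, the adjusted p of STC1 was 0.054 without control replicate 2, 0.058 without vehicle control replicate 2 and 0.055 without vehicle control replicate 3, and that of VEGFA was 0.11 without vehicle control replicate 1 and 0.072 without vehicle control replicate 3. STC2 lost its call without control replicate 1 (0.12), control replicate 3 (0.10), vehicle control replicate 1 (0.22) or vehicle control replicate 3 (0.17). ADM was called without control replicate 2 (0.0017) or vehicle control replicate 3 (0.046), and ERFE without control replicate 1 (0.021).

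No difference of these genes was detectable between Nap only and control cultures. Of the 8 tested, 0 were called against control, 0 had an unadjusted p under 0.05 and DESeq2 called 0, with the largest log2 fold change, -0.54 (SE 0.568), in ADM. Of all 17166 genes, 0% were called by edgeR (217 at an unadjusted p under 0.05, and 1 gene by DESeq2). This group holds 2 cultures, which limits the precision.

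The vehicle control and Nap only groups differ by ethanol in their labels. The vehicle control cultures are those compared with control above, and they also took part in the choice of the genes. The contrasts of vehicle control are therefore not separate evidence. INHBE was lower with ethanol, by a log2 fold change of -0.44 (SE 0.0994, adjusted p = 0.0025 by edgeR), and was called under all 12 alternatives (adjusted p from 0.00033 to 0.026). ERFE was higher by 0.38 (SE 0.0853, adjusted p = 0.0027), ADM by 1.52 (SE 0.412, adjusted p = 0.015) and ADM2 by 0.38 (SE 0.125, adjusted p = 0.029). Beside these 4 of 8 tested, 23.8% of 16935 genes were called, 12.7% higher and 11.2% lower. VEGFA (-0.18, adjusted p = 0.11), STC1 (-0.75, 0.11), GDF15 (0.32, 0.31) and STC2 (-0.06, 0.64) were not called. Over all alternatives that gave one, the adjusted p ran from 0.00039 to 0.053 for ERFE, from 1.4e-05 to 0.10 for ADM, from 0.015 to 0.17 for ADM2 and from 0.0024 to 0.84 for VEGFA. Without Nap only replicate 2 the adjusted p of ERFE by edgeR was 0.053. That of ADM was 0.076 without Nap only replicate 1 and 0.10 without vehicle control replicate 2. ADM2 was not called without Nap only replicate 1 (0.062) or replicate 2 (0.13), nor without vehicle control replicate 1 (0.062) or replicate 2 (0.12), and VEGFA was called without Nap only replicate 1 (0.0024). In the contrasts with P4, which share the P4 treated cultures, the log2 fold change of ADM2 was 1.59 against vehicle control and 1.96 against Nap only, and that of INHBE was 2.53 and 2.07.

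**Figure D3:**
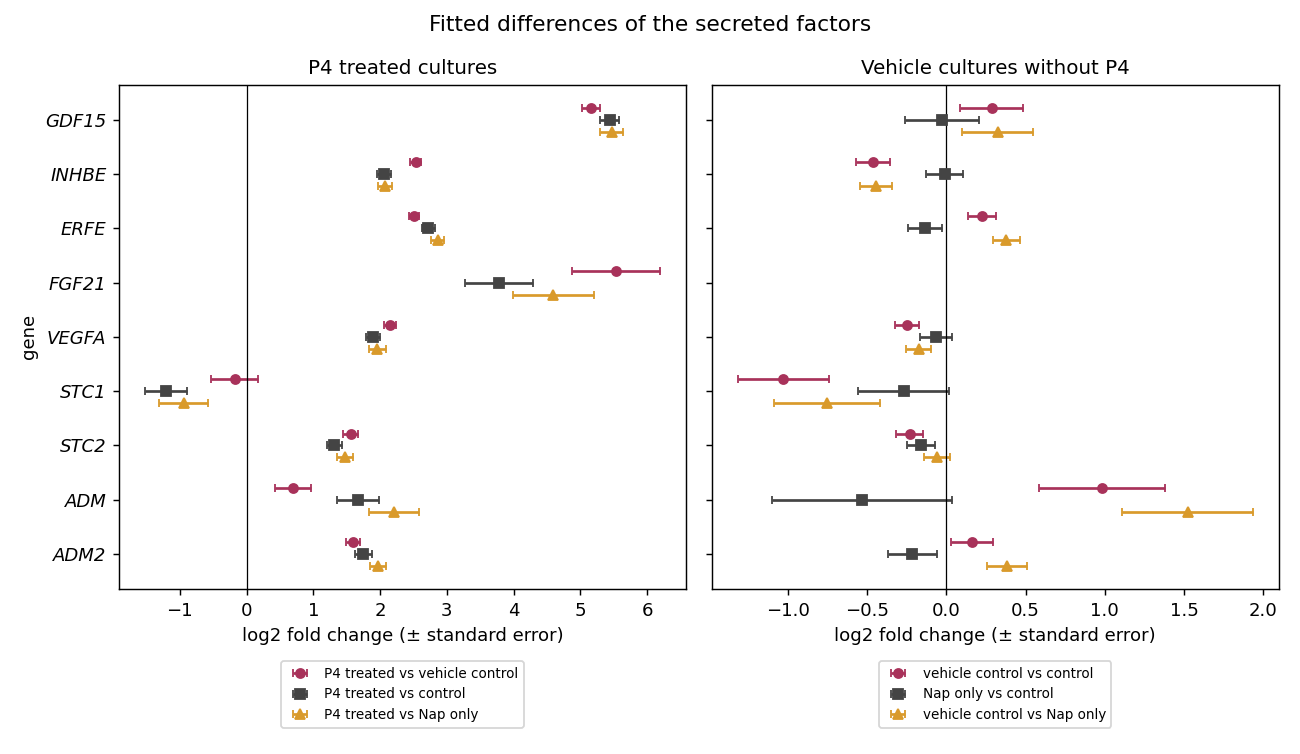
Fitted log2 fold change (± standard error, edgeR) of the 9 secreted factors in the 3 contrasts with P4 treated cultures and in the 3 contrasts among cultures without P4 (FGF21 had too few counts there). GDF15 lies at 5.16 to 5.47 in the contrasts with P4, and INHBE lies at -0.46 and -0.44 in the contrasts of vehicle control.

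The receptors through which these factors act were mixed. Of 19 receptor genes, 14 were tested in P4 treated against vehicle control, of which 4 were higher and 6 lower (median log2 fold change -0.40), beside 26.6% higher and 26.5% lower over all genes. GFRAL, the receptor of GDF15, and KLB, the co-receptor of FGF21, had 0 counts in all labelled cultures, which allows up to 3 counts in a library. KDR, the main VEGFA receptor of vessels, RAMP2 and RAMP3 had too few counts. FLT1, another VEGFA receptor, had group means of 1.63 CPM with P4, 0.721 with vehicle, 0.573 in controls and 0.398 with Nap only. It is counted among the 4 higher, but it passed the filter through the P4 treated cultures, so no test is read from it. NRP2, a co-receptor of VEGF, had 21 counts over the P4 treated cultures and 43 over the vehicle controls. It is counted among the 6 lower, but it passed the filter through the vehicle controls, so no test is read from it. FGFR1 (0.67, adjusted p = 1.2e-05, edgeR) and the activin receptor ACVR2B (0.63, 6.5e-05) were higher. FGFR2 (-0.62, 0.00027) and the activin receptor ACVR1C (-1.36, 0.00068) were lower. CALCRL, the receptor of both adrenomedullins, was at 10.6 ± 5.06 CPM (SD, n = 3) with P4 and 22.3 ± 1.33 CPM (SD, n = 3) with vehicle (log2 -1.10, adjusted p = 0.0058 by edgeR), and was also lower than in control (-1.17, 0.0055) and Nap only (-1.18, 0.011). Its partner RAMP1 was lower than in vehicle control (-0.55, adjusted p = 0.0022 by edgeR) but was not called against control (-0.31, 0.10) or Nap only (-0.03, 0.89), and vehicle control was higher than Nap only (0.53, 0.0037). CALCRL, RAMP1, FLT1, NRP2 and the receptors named for too few counts were chosen for their ligands after their values were seen.

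Most relatives of the factors had too few counts to test. Of 16, 6 were tested, with 2 higher and 1 lower (median 0.058), beside 26.6% higher and 26.5% lower over all genes. CALCB, a calcitonin gene-related peptide, was at 4.55 ± 0.967 CPM (SD, n = 3) with P4 against 1.17 ± 0.180 CPM (SD, n = 3) with vehicle (log2 1.89, adjusted p = 6.4e-05, edgeR). FGF19, a sister of FGF21, was higher (1.24, 0.0036), and PGF, a placental member of the VEGF family, was lower (-1.08, 0.0028). IGFBP4, the substrate of PAPPA (itself at too few counts to test), had 120 counts over the P4 treated cultures and 11 over the vehicle controls, so it passed the filter through the P4 treated cultures and no test is read from it. Among extracellular binding partners and inhibitors, CHRD, a BMP antagonist, had 137 counts over the P4 treated cultures and 36 over the vehicle controls. The lowest vehicle control was at 0.192 CPM. CHRD thus passed the filter through the P4 treated cultures, so no test is read from it. The BMP antagonist GREM1 had 11 counts over the P4 treated cultures and 29 over the vehicle controls. It passed the filter through the vehicle controls, so no test is read from it. Across the alternatives the number of relatives higher ranged from 0 to 3. The 0 came with at least 10 counts required in every sample, where only 3 relatives were tested. CALCB and FGF19 were not among them, and FGF19 had 83 counts over the P4 treated cultures and 31 over the vehicle controls. Of 7 prohormone processing genes, 6 were tested, with 2 higher and 2 lower (median -0.024), again beside 26.6% and 26.5% over all genes. CPE, a carboxypeptidase of peptide hormones, was higher (0.74, adjusted p = 3.7e-06, edgeR), as was PCSK5 (0.79, 0.0017). FURIN was lower than in vehicle control (-0.46, 0.0011) and control (-0.36, 0.0050) but was not called against Nap only (-0.26, 0.059). PAM, which amidates adrenomedullin, was lower than in vehicle control (-0.24, adjusted p = 0.048 by edgeR) but was not called against control (-0.06, 0.66) or Nap only (-0.09, 0.58). Its call was lost in 6 of 13 alternatives (adjusted p from 0.00015 to 0.15), namely with DESeq2 and without P4 treated replicate 2 or 3 or any single vehicle control culture. Without vehicle control replicate 1 the number of these genes lower was 1.

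The stress genes that share regulators with the secreted factors were compared in the same contrast. These lists were chosen with earlier results of these data known, so their counts are not separate evidence. Of 16 ATF4 and CHOP stress genes, 16 were higher and 0 lower with P4 than with vehicle, with a median log2 fold change of 1.82, and this held in every alternative. Over all genes, 26.6% were higher and 26.5% lower. TRIB3, a pseudokinase induced by CHOP, was at 367 ± 46.6 CPM (SD, n = 3) against 18 ± 0.705 CPM (SD, n = 3), a log2 fold change of 4.34 (adjusted p = 1.1e-10, edgeR). CEBPG, a partner of ATF4, was higher by 2.13 (1.7e-09). In vehicle control against control, 5 of these 16 genes were higher and 0 lower by edgeR, beside 11.9% higher and 10.7% lower over all genes in that contrast. Of 15 hypoxia-inducible factor genes, 14 were tested, with 9 higher and 1 lower (median 0.42). VLDLR, which is also on the ATF4 list (0.90, adjusted p = 2.4e-05, edgeR), and PDK1 (0.66, 3.7e-05), which restrains pyruvate oxidation, were higher. LDHA, a glycolytic enzyme, was lower (-1.09, 1.2e-07). In vehicle control against control, 2 of these 14 genes were higher and 4 lower. The lower ones included PDK1 (-0.29, adjusted p = 0.021 by edgeR) and LDHA (-0.46, 0.00084). In P4 treated against control, 6 were higher and 2 lower, beside 4461 higher and 4651 lower of 16620 genes.

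**Figure D4:**
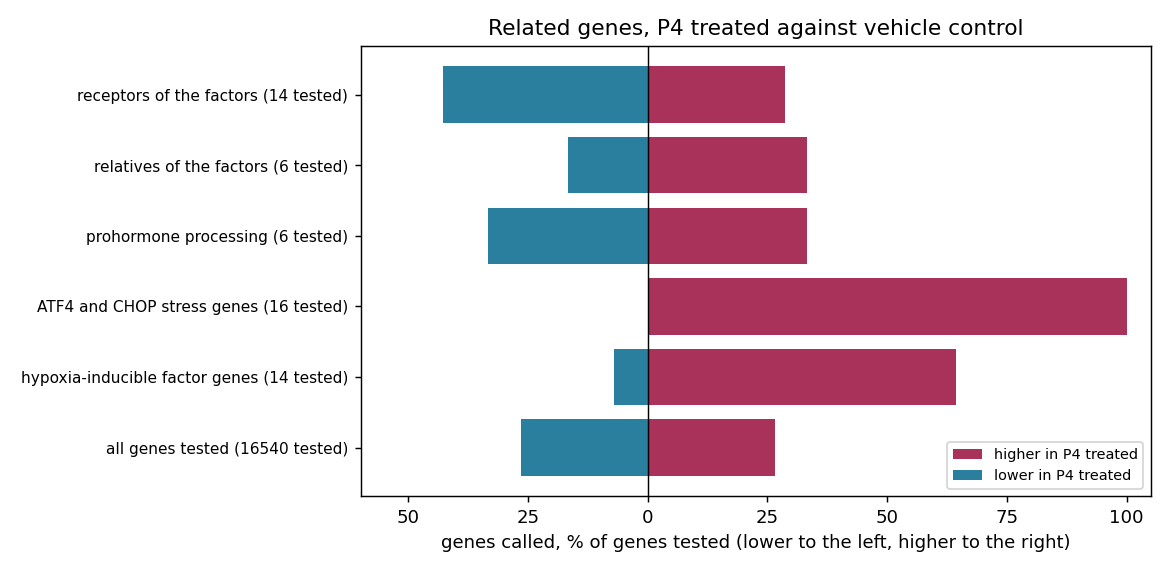
Genes called in P4 treated against vehicle control (adjusted p under 0.05, edgeR) as a percent of the genes tested in each of 5 lists, with all 16540 genes tested at the foot; bars to the right are higher and bars to the left lower. The ATF4 and CHOP list has 16 of 16 higher, while the receptors have 4 higher and 6 lower of 14.

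The genes most like each secreted factor were found by Pearson's r of log2 CPM over the 11 labelled cultures, among 13246 genes, as a description. The cultures fall into P4 treated and others, and r over them depends largely on that step. GDF15 was closest to FAM129A (r = 0.999) and CCR2 (0.998), INHBE to IGFBP5 (0.995) and MTHFD2 (0.993), and ERFE to GFPT2 (0.998) and AKNA (0.996). FGF21 was closest to BNIP2 (0.982), VEGFA to WIPI1 (0.997), STC2 to HOXD8 (0.994) and ADM2 to CLDN7 (0.993). ADM (BMP4, 0.955) and STC1 (TIMMDC1, 0.955) had the loosest neighbours.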

How the data were processed

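RNA-seq of Ishikawa cells was analysed in 11 labelled cultures, and 6 further cultures are given as values. After trimming with Cutadapt and a quality filter, the authors used Subread, kept only reads with a unique alignment, and deposited whole-number counts per gene from featureCounts with GENCODE release 31. Tool versions and strand setting are not given in the sources used here. The number of columns not used was 0.

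Counts were fitted with edgeR 4.0.16 in R 4.3.3 (TMM, filterByExpr with a minimum count of 10, robust quasi-likelihood test, Benjamini-Hochberg adjustment over all genes tested), with only the groups compared in each fit, and genes with an adjusted p under 0.05 were called. SE is the log2 fold change divided by the root of F. CPM were scaled by TMM factors over all 17 columns. DESeq2 1.42.0, RLE and upper-quartile normalization, other filters, all 4 groups in 1 fit, a replicate block and leaving out each culture were alternatives. The list counts without vehicle control replicate 1 were added after seeing the data. Scripts were tested on simulated data. Names and positions came from GENCODE 29 (58542 of 60662 genes matched, 43928 with the same version). For INHBE, ERFE, STC1, ADM and ADM2 the version differed. Figures used Python 3.11.15 and matplotlib 3.10.9.

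The 9 genes and the lists were chosen with earlier results of these data known. Named genes are the 9 and, from each list, the 2 of smallest adjusted p per direction, besides receptors named for their ligands. Cultures are labelled as biological replicates, and p-values measure the spread between them. Intervals of count ratios are exact at 95% and cover counting error only. The results of some listed genes are not reported here.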

Additional observations from a re-analysis of the deposited data

Results flagged for a closer look

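The 6 cultures without a group carry titles naming PSAT1 or PSAT1 with P4, while their column names say the opposite, so no condition is assigned and no comparison is made. In 8 of the 9 genes at least 3 of these 6 cultures lay above all 8 labelled cultures without P4, which flagged them. The share of all genes that did so was not computed, and the 9 genes were chosen for their changes under P4. Nothing is therefore read from this count. GDF15 ranged from 2.74 to 154 CPM (median 64.5), with 126 to 154 CPM in the 3 cultures titled PSAT1 and 2.74 to 3.27 CPM in the 3 titled PSAT1_P4. INHBE reached 133 CPM (99.3 to 133 and 22.1 to 28.1), ERFE 351 CPM (331 to 351 and 44.1 to 57.6) and VEGFA 446 CPM (420 to 446 and 104 to 112), in the same order of titles. STC2 reached 202 CPM (149 to 202 and 71.1 to 77.7), ADM2 42.5 CPM (41.1 to 42.5 and 13.3 to 16.1), ADM 6.87 CPM (5.13 to 6.87 and 1.08 to 1.53) and FGF21 2.76 CPM (0.840 to 2.76 and 0 to 0.128). STC1, which was not flagged, ranged from 0.550 to 1.80 CPM (median 1.34), and the titles overlapped. Which of the label and the column name is right cannot be told from the labels, and the values were not used to decide it.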

How the results depend on the processing

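Of the alternative counts of called genes, 59 stayed within 1.5 times the count reported and 16 did not, and among the fold changes of the secreted factors 573 were unaffected, 25 lost and 9 gained a call, 8 moved and 9 changed sign. For Nap only against control the count of 0 genes became 1 with DESeq2, 3 without a filter, 1 with all 4 groups in 1 fit and 42 with a replicate block, and 0 to 5 without single cultures. For vehicle control against Nap only, 4034 genes became 2130 with DESeq2 and 1912 with all 4 groups, and 2355 to 3803 without single cultures. Leaving out single cultures gave 7083 to 9953 genes for P4 treated against vehicle control (8774 reported), 7617 to 9709 against control (9112), 5502 to 9719 against Nap only (8446) and 1908 to 3995 for vehicle control against control (3763). Signs changed as follows. STC1 in P4 treated against vehicle control ranged from -0.50 to 0.0049 without single cultures. In Nap only against control GDF15 ranged from -0.12 to 0.066 (0.026 without control replicate 2), INHBE from -0.066 to 0.093 (0.034 without Nap only replicate 2, 0.0047 with upper-quartile normalization), VEGFA from -0.23 to 0.079 and ADM from -1.59 to 0.010. STC2 in vehicle control against Nap only ranged from -0.17 to 0.0052. The causes were not tested.

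For vehicle control against control, STC2 was not called with DESeq2 (adjusted p = 0.064), RLE (0.052), upper-quartile normalization (0.063) or all 4 groups (0.096), nor VEGFA with all 4 groups (0.076), and DESeq2 gave no adjusted p for STC1. ADM was called without a filter (0.0041). For vehicle control against Nap only, ADM2 was not called with DESeq2 (0.17), without a filter (0.068) or with all 4 groups (0.093), nor ADM with all 4 groups (0.081), DESeq2 gave no adjusted p for ADM, and VEGFA was called without a filter (0.029). The replicate number as a block gave 8934 genes for P4 treated against vehicle control, called ERFE (0.044) and ADM (0.0070) in vehicle control against control and VEGFA (0.048) in vehicle control against Nap only, and changed no other call of the secreted factors. Same-numbered cultures did not deviate together in P4 treated and vehicle control (r from -0.024 to 0.045 over 3 pairs). In Nap only and control r was 0.264 and 0.325, over 2 pairs. Whether same-numbered cultures were handled together cannot be told from these values. Depth limits FGF21 and STC1, with at most 31 and 53 counts in a labelled culture.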

Other observations

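A search for seed matches was chosen after the data were seen. The miRNAs that the study follows are miR-671-5p, miR-340-5p and also miR-542-3p. They were not measured in these libraries, and the mature sequence of miR-542-3p was not used here. The other two are shown with the seed (bases 2 to 8) in capitals (RefSeq, GRCh38.p14):
hsa-miR-340-5p: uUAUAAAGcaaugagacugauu
hsa-miR-671-5p: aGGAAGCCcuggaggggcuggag
Of the secreted factors searched, STC2 alone held a match to either seed in its longest annotated 3′ UTR (3134 bases), 1 for each. The study had already named STC2 as a shared predicted target of its miRNAs, miR-542-3p included. It used the prediction tool TargetScan, with other rules for a site. STC1 was not searched. The windows are shown with the match in capitals (GRCh38, chr5:173315183-173315212 and chr5:173314713-173314742, - strand):
STC2 with miR-340-5p: ctctacttgggCTTTATActgcatacaaat
STC2 with miR-671-5p: aaaagttttaaataaatGGCTTCCacttga
Among 18960 coding 3′ UTRs, 16.2% and 13.5% held such a match. No value here bears on whether the sites are used.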
